A study of Mus musculus with 55 samples.

Results

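The genes of glycolysis and of the cellular response to low oxygen were followed in cultured mouse forebrain neurons across 2 stages of maturation, 3 ways of raising activity and a 48 h block of action potentials. The 34 genes were taken by name from a list of glucose and lactate transporters, glycolytic enzymes, regulators of pyruvate use and known targets of hypoxia-inducible factor. They were 34 of 28492 genes with a symbol in the first experiment and of 28216 in the second, and each was read from its RefSeq transcript with the most counts. These genes and the lists used below were chosen with earlier results of these data known. Their counts beside the share of all tested genes are therefore descriptive.

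Glycolysis turns glucose into pyruvate in the cytosol, and lactate dehydrogenase interconverts pyruvate and lactate. When oxygen is scarce, prolyl hydroxylases no longer mark hypoxia-inducible factor 1 alpha for destruction, and the stabilised factor binds DNA with a partner and raises transcription of glucose transporters, most glycolytic enzymes, pyruvate dehydrogenase kinases and secreted factors that act on blood vessels. In brain tissue both neurons and astrocytes take up glucose, and astrocytes are known for a high rate of glycolysis and for release of lactate.

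Primary cultures came from cortex and hippocampus of CD1 mouse embryos of both sexes, so each sample holds neurons together with some glia, and fewer cells of a type cannot be told apart from less RNA per cell. In the maturation experiment (28 samples, 10 groups), cultures at 7DIV or 21DIV (days in vitro, 23 days in the sample labels) were left unstimulated (basal) or received 55 mM KCl, which depolarises the membrane, or 50 μM bicuculline with 2.5 mM 4-aminopyridine (Bic+4AP), which block GABA-A receptors and potassium channels, for 15 or 180 min. In the stimuli experiment (27 samples, 11 groups), 21DIV cultures were left basal, received 55 mM KCl or 50 μM bicuculline alone (Bic) for 15, 45 or 180 min, or were silenced with 1 μM tetrodotoxin (TTX), a blocker of voltage-gated sodium channels, for 48 h (basal TTX) and then washed free of it for 15, 45 or 180 min (TTXw). Groups held 3 samples, except 2 in 21DIV Bic+4AP at both times, in each KCl and Bic group of the stimuli experiment and in TTXw 45 min, and 4 in basal TTX. The labels do not say that replicates came from separate cultures, so p-values measure only the spread between these samples. The 3′ libraries held between 1177500 and 14012872 counts, and levels are given as CPM, that is, counts scaled to the library total with TMM factors. A gene was called when its adjusted p was under 0.05 and its change at least 1.5-fold.

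All 12 neuron markers were detected in every basal group. In the maturation experiment their summed levels were 11501 to 11770 CPM at 7DIV and 9472 to 10803 CPM at 21DIV. There, summed levels of 16 astrocyte markers were 1074 to 1376 CPM at 7DIV and 5799 to 6972 CPM at 21DIV, with Gjb6 at 0 in all 7DIV basal samples. Those of 13 oligodendrocyte lineage markers were 473.3 to 748.4 and 2523 to 3341 CPM. Basal samples of the stimuli experiment had 3853 to 4430 CPM of astrocyte and 826.2 to 1273 CPM of oligodendrocyte lineage markers. Markers of microglia, endothelial and mural cells, and fibroblasts summed to at most 64.94 CPM in every sample.

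Hypoxia-inducible factor recognises a short core in DNA, ACGTG or GCGTG, and the 250 bases before the transcription start are shown for the members called in at least 5 comparisons that had a single listed start. The sequences are RefSeq's for GRCm38.p6 and read 5′ to 3′ on the strand of the gene, with capitals where ACGTG or GCGTG occurs on either strand, so that CACGT and CACGC mark the core on the other strand. Adm (adrenomedullin, a vasodilator peptide) lies at chr7:110627407-110627656 on the plus strand, Bnip3 (a mitochondrial protein that triggers mitophagy) at chr7:138909507-138909756 on the minus strand, Hk2 (hexokinase 2) at chr6:82774455-82774704 on the minus strand and Slc2a1 (the glucose transporter GLUT1) at chr4:119108495-119108744 on the plus strand.
Adm: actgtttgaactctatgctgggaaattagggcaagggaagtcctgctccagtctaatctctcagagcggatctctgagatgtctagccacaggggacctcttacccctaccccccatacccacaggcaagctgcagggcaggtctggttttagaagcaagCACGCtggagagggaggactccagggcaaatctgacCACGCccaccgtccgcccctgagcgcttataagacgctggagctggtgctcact
Bnip3: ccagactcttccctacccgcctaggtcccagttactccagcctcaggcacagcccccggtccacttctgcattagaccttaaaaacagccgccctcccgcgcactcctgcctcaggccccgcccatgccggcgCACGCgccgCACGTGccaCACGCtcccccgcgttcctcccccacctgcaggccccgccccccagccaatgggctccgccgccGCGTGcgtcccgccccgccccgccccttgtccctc
Hk2: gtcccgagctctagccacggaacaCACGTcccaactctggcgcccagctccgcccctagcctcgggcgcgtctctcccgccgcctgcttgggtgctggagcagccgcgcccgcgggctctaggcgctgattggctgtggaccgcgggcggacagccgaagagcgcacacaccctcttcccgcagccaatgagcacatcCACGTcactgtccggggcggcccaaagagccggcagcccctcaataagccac
Slc2a1: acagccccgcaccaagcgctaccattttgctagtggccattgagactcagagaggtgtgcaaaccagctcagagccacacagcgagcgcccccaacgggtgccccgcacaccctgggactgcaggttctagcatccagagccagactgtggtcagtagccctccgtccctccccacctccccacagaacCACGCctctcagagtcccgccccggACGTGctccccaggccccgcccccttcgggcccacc

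The core occurred 5 times in the Bnip3 sequence, where CACGTG counts as a match on both strands, and 2 times in each of the other sequences. Over the 300-base promoters, which also take in the bases just after the start, 31 members were listed and 28 of them (90.3%) held the core on either strand, beside 46.7% of all 27025 listed genes and 68.7% of the 9379 listed genes that were tested in the maturation experiment. A gene was counted when any of its listed promoters held the core. Counted by promoter, the core was in 80.4% of 46 member promoters and 43.8% of all 32851 promoters. ACGTG alone occurred in 22 of 31 members (71%), beside 29.8% of tested genes, and GCGTG in 21 of 31 (67.7%), beside 57.1% of tested genes. Median GC content was 62.8% for the member promoters, 61% for promoters of tested genes and 52.7% for all promoters. The members were taken by name partly as known targets of the factor. A larger share with the core could follow from that choice and is not a test. Members also had more listed promoters a gene (46 for 31 members, 32851 for 27025 genes), which favours the count by gene. These letters describe the sequence and do not show binding. Slc2a3, Bnip3l and Ndrg1 had no listed promoter.

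**Figure D1:**
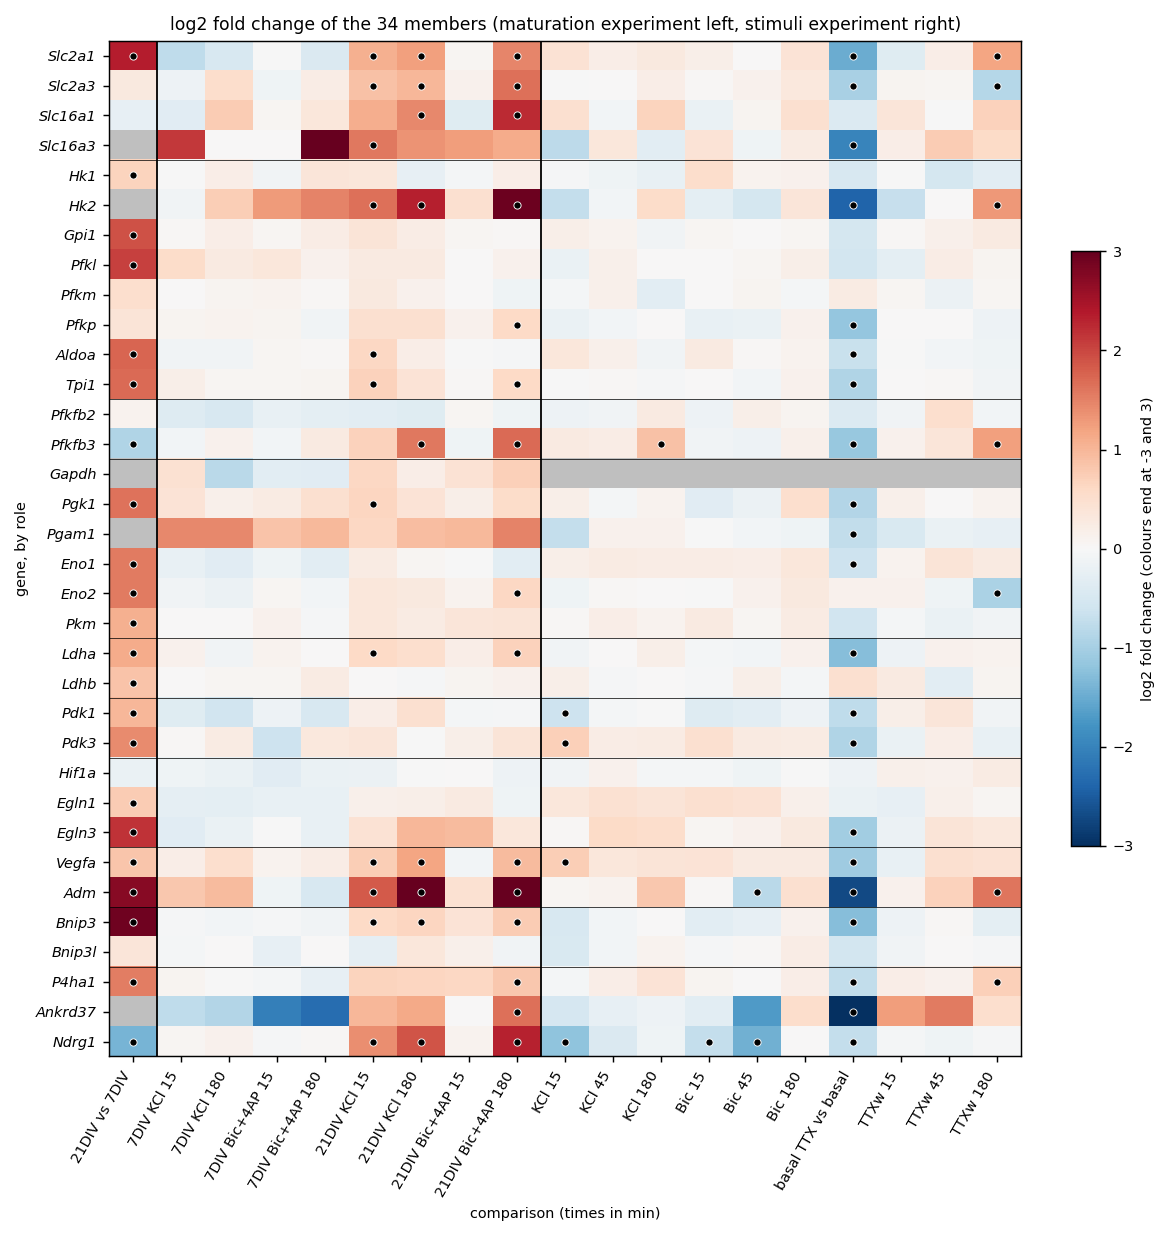
Log2 fold change of each of the 34 genes (rows, ordered and separated by role) in the comparisons with a basal group (columns, times in min), with red for higher, blue for lower, grey for genes that failed the filter on low counts and black dots for called genes. Dots fill most of the columns for 21DIV against 7DIV (22 genes) and for basal TTX against basal (21 genes), and none stands in the 4 columns for stimulation at 7DIV. Of all tested genes, 18.2% were called higher and 14.9% lower between stages, and 10.8% in each direction for basal TTX. Strong colours without a dot, as for Slc16a3 and Ankrd37 at 7DIV, rest on few counts.

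Most of the glycolytic pathway was higher in basal cultures at 21DIV than at 7DIV. Of the 29 members that passed the filter in this comparison, 20 were called higher and 2 lower, beside 18.2% of all 10510 tested genes called higher and 14.9% called lower. The median log2 difference was 1.06 for the 29 members and 0.01 for all tested genes. Among the members that passed, upper glycolysis from hexokinase to triose phosphate isomerase had 5 of 7 higher, and lower glycolysis from phosphoglycerate kinase to pyruvate kinase 4 of 4.

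Bnip3 showed the largest difference, with 125, 129 and 134 CPM at 7DIV and 866, 694 and 1311 CPM at 21DIV. Its groups did not overlap (log2 difference 2.91 ± 0.20 SE, adjusted p = 1.4e-07). Adm was low throughout, with 0.472, 3.05 and 2.16 CPM at 7DIV and 26, 4.45 and 6.61 CPM at 21DIV. Replicate 1 stood above the other 21DIV samples, and without it Adm no longer passed the filter (log2 difference with all samples 2.72 ± 0.74, adjusted p = 0.01). Slc2a1 had 11.3, 5.50 and 12.1 CPM at 7DIV and 38.2, 51.5 and 61.6 CPM at 21DIV, again without overlap (2.35 ± 0.28, adjusted p = 1.9e-05). Egln3, a prolyl hydroxylase that is itself a target of the factor it marks, had 23.1, 26.3 and 16.2 CPM at 7DIV and 59.2, 67.7 and 153 CPM at 21DIV (2.17 ± 0.34, adjusted p = 2.1e-04).

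Many enzymes of the pathway were called higher as well. Pfkl, the liver-type phosphofructokinase that commits fructose 6-phosphate to glycolysis, rose from a mean of 11.67 to 47.25 CPM (2.06 ± 0.26, adjusted p = 3.1e-05). Gpi1, which makes fructose 6-phosphate, rose from 86.85 to 318.4 CPM (1.90 ± 0.17, adjusted p = 1.6e-06). Aldoa, the aldolase that splits the sugar, had 933, 995 and 906 CPM at 7DIV and 3035, 2744 and 3571 CPM at 21DIV (1.75 ± 0.12, adjusted p = 1.4e-07). Triose phosphate isomerase (Tpi1), phosphoglycerate kinase (Pgk1) and the enolases Eno2 and Eno1 were higher by 1.70, 1.63, 1.56 and 1.55 on the log2 scale. P4ha1, a collagen prolyl hydroxylase, was higher by 1.54, the pyruvate dehydrogenase kinases Pdk3 and Pdk1 by 1.42 and 0.99, lactate dehydrogenases Ldha and Ldhb by 1.11 and 0.85, pyruvate kinase Pkm by 1.06, Vegfa (vascular endothelial growth factor) by 0.83 and Egln1, the main oxygen sensor of the pathway, by 0.75.

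The members called lower were Ndrg1 and Pfkfb3. Ndrg1, a stress-induced cytoplasmic protein, had 79.2, 80.0 and 94.1 CPM at 7DIV and 49.9, 24.0 and 21.4 CPM at 21DIV (-1.40 ± 0.27, adjusted p = 0.0011). Pfkfb3, which makes the phosphofructokinase activator fructose 2,6-bisphosphate, had 24.5, 16.5 and 18.6 against 11.9, 10.3 and 9.14 CPM (-0.91 ± 0.27, adjusted p = 0.015). The groups did not overlap for either gene, although Pfkfb3 lost its call without 7DIV replicate 2 or 21DIV replicate 3. Hk1, the housekeeping hexokinase, was called higher (0.67 ± 0.25, adjusted p = 0.046) but its groups overlapped, and the call was lost without 7DIV replicate 2 or 3 or 21DIV replicate 1 or 3.

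The other tested members were not called. Slc2a3 (the neuronal transporter GLUT3), the lactate transporter Slc16a1, Pfkm, Pfkp, Pfkfb2, Bnip3l and Hif1a lay between -0.25 and 0.50 on the log2 scale. Hif1a, the oxygen-regulated factor itself, had 50.5, 58.6 and 66.3 CPM at 7DIV and 47.9, 49.7 and 53.4 CPM at 21DIV. Hk2, Gapdh, Pgam1, Slc16a3 and Ankrd37 failed the filter, and in 7DIV basal samples they had 0 to 3, 2 to 7, 0 to 2, 0 and 1 to 6 counts. Astrocyte markers were called higher in 15 of 16 cases and oligodendrocyte lineage markers in 11 of 11 tested. Neuron markers were called higher in 6 and lower in 4 of 12 cases, and markers of dividing and progenitor cells higher in 2 of 7, and the part of this in the members' differences was not tested.

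At 7DIV no stimulus called a single member, and few or no genes were called at all. With edgeR, 0 of 34 were called after KCl for 15 min (background 0% of 11746 tested genes), KCl for 180 min (1.98%), Bic+4AP for 15 min (0%) or Bic+4AP for 180 min (0%). Unadjusted p-values under 0.05 were found for 1, 3, 2 and 2 members in the same order, and DESeq2 called 0 in each. Hk2, Gapdh, Pgam1, Slc16a3 and Ankrd37 passed the filter over all 28 samples but failed it over the 6 basal samples alone. Their counts at 7DIV were few, so the absence of a call there says little about these members. Median log2 changes of the members were -0.01, 0.04, -0.02 and 0.01. With 1.98% of all genes called after KCl 180 min, 0 of 34 members does not set them apart from other genes. The early activity gene Junb rose by 2.63 ± 0.23 on the log2 scale in that comparison. Libraries at 7DIV were also smaller, with a median of 2867836 counts against 5088478 at 21DIV. Slc2a1 had 11.3, 5.50 and 12.1 CPM in basal samples, 7.26, 8.89 and 6.08 CPM after KCl for 180 min and 5.78, 11.6 and 4.62 CPM after Bic+4AP for 180 min.

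**Figure D2:**
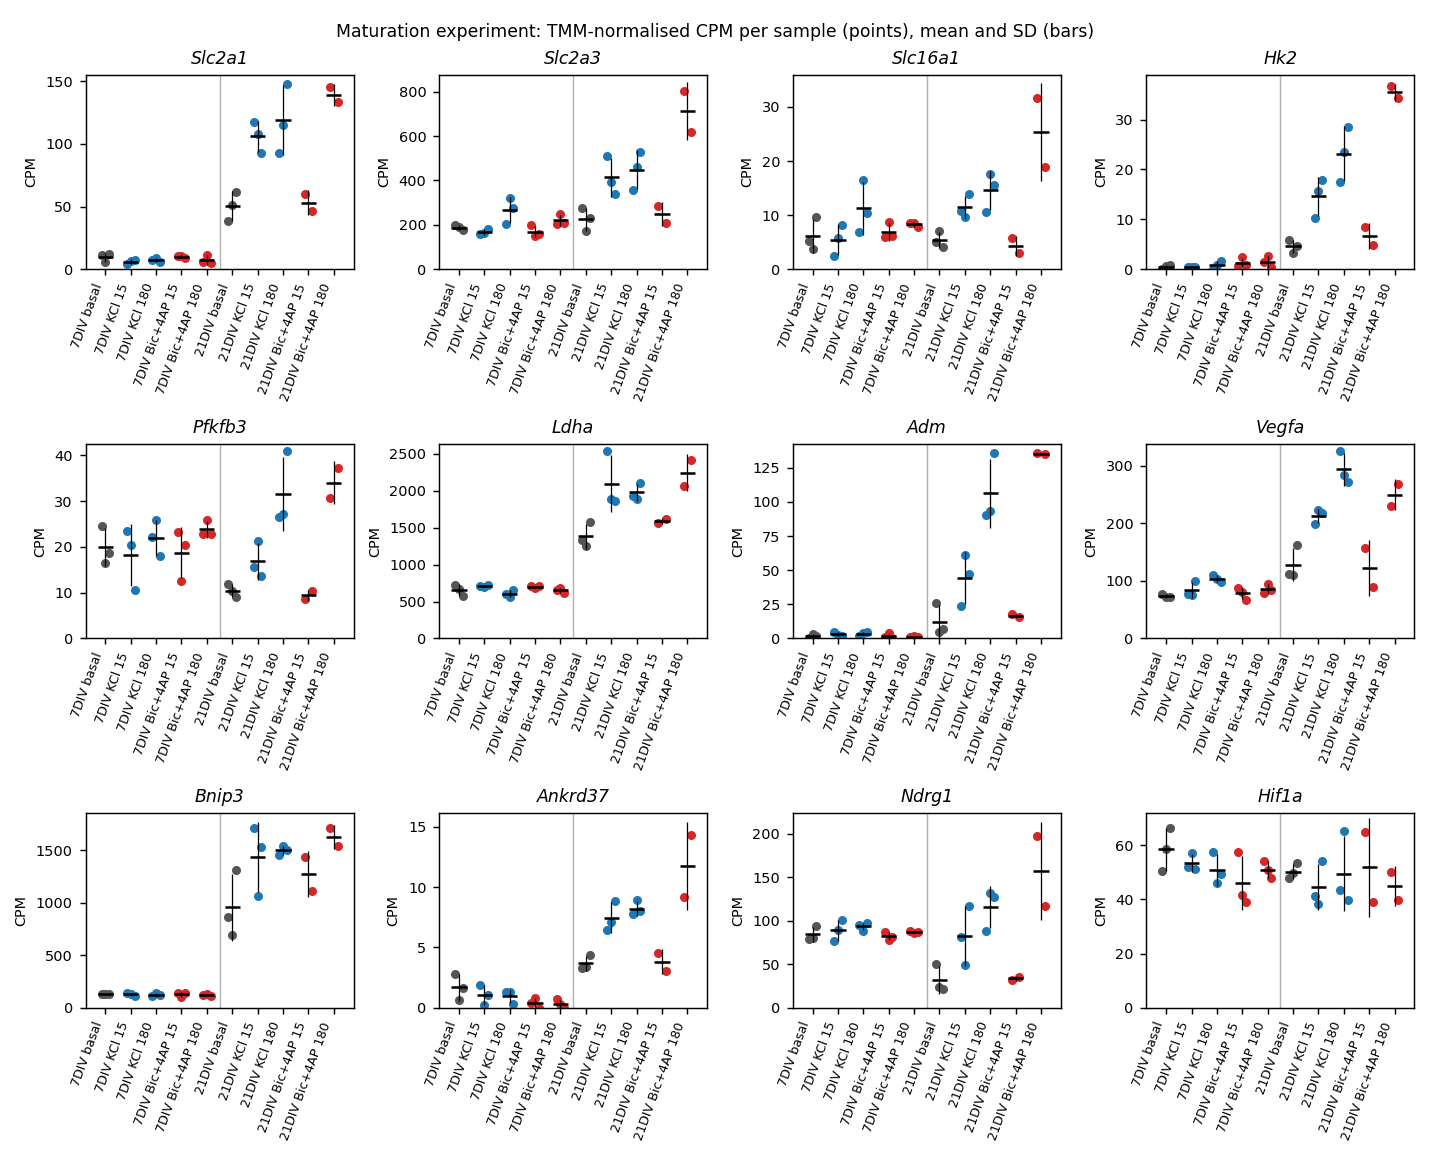
TMM-normalised CPM in every sample of the maturation experiment for 12 members, with points for samples, horizontal bars for group means and vertical bars for SD. The grey line parts 7DIV from 21DIV. At 21DIV Slc2a1, Hk2, Adm and Ndrg1 sit above basal after KCl 180 min and Bic+4AP 180 min in every sample, whereas the 7DIV groups stay near their basal level and Hif1a is level throughout.

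At 21DIV the same stimuli gave a different picture, in which called members were higher and none was lower in 3 of the 4 comparisons and none was called in the other. KCl for 15 min called 12 of 34 members higher and 0 lower (background 3.21% higher and 3.02% lower). KCl for 180 min called 9 higher and 0 lower (2.98% higher and 1.91% lower), and Bic+4AP for 180 min called 15 higher and 0 lower (7.39% higher and 6.84% lower). With Bic+4AP for 15 min edgeR and DESeq2 called 0 members (0.0511% of genes in either direction), and 5 members had an unadjusted p under 0.05. Median log2 changes of the members were 0.59, 0.44 and 0.59 after KCl 15 min, KCl 180 min and Bic+4AP 180 min, beside 0.00, -0.02 and -0.02 for all tested genes. All these comparisons share the same 3 basal samples. The count for KCl 15 min fell to 4 without basal replicate 2, to 7 without KCl 15 min replicate 1 and to 6 when only the groups compared were fitted. The counts ranged from 7 to 11 for KCl 180 min and from 10 to 17 for Bic+4AP 180 min when each sample was left out in turn.

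Among the transporters, Slc2a1 had 38.2, 51.5 and 61.6 CPM in basal samples and 117, 108 and 93.2 CPM after 15 min of KCl. It had 92.6, 115 and 148 CPM after 180 min of KCl and 146 and 133 CPM after 180 min of Bic+4AP. None of the 3 stimulated groups overlapped with basal, and the log2 changes were 1.07 ± 0.21 (adjusted p = 0.002), 1.23 ± 0.22 (adjusted p = 6.5e-04) and 1.46 ± 0.23 (adjusted p = 7.2e-05). Slc2a3 had 276, 171 and 229 CPM in basal samples, 509, 394 and 339 CPM after KCl 15 min, 357, 462 and 530 CPM after KCl 180 min and 804 and 619 CPM after Bic+4AP 180 min. It rose by 0.88, 0.99 and 1.66 (SE 0.18 to 0.20). Slc16a1, which carries lactate and pyruvate across the membrane, had 4.99, 7.12 and 4.19 CPM in basal samples and 31.7 and 18.9 CPM after Bic+4AP 180 min (2.24 ± 0.38, adjusted p = 1.4e-04). After KCl 180 min it had 10.7, 17.6 and 15.5 CPM, a rise of 1.44 ± 0.35 (adjusted p = 0.014) that was lost without basal replicate 3 or KCl 180 min replicate 2 or 3. Slc16a3, the lactate exporter of glycolytic cells, had 3.62, 2.14 and 4.74 CPM in basal samples and 7.52, 12.3 and 12.8 CPM after KCl 15 min (1.59 ± 0.44, adjusted p = 0.023), a call lost without basal replicate 2 or KCl 15 min replicate 2 or 3.

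Hk2, the inducible hexokinase, had 5.85, 3.21 and 4.63 CPM in basal samples. It had 10.3, 15.7 and 17.9 CPM after KCl 15 min (1.65 ± 0.38, adjusted p = 0.0057), 17.4, 23.6 and 28.4 CPM after KCl 180 min (2.33 ± 0.38, adjusted p = 3.5e-04) and 36.7 and 34.3 CPM after Bic+4AP 180 min (2.95 ± 0.41, adjusted p = 1.0e-05). Every stimulated sample lay above every basal sample, although the 15 min call was lost without basal replicate 2. Pfkfb3 had 11.9, 10.3 and 9.14 CPM in basal samples, 15.6, 21.4 and 13.6 CPM after KCl 15 min (not called), 26.6, 27.1 and 40.9 CPM after KCl 180 min (1.59 ± 0.25, adjusted p = 2.6e-04) and 30.6 and 37.3 CPM after Bic+4AP 180 min (1.70 ± 0.28, adjusted p = 8.0e-05). After KCl 180 min no other glycolytic enzyme was called. At 15 min of KCl, Tpi1, Pgk1, Aldoa and Ldha rose by 0.70, 0.64, 0.62 and 0.60. Without basal replicate 2 or KCl 15 min replicate 1 none of these calls held, and without basal replicate 1 those of Pgk1 and Ldha were lost as well. After Bic+4AP 180 min, Ldha, Eno2, Pfkp and Tpi1 rose by 0.70, 0.63, 0.59 and 0.59. Of these calls Eno2, Pfkp and Tpi1 were lost without basal replicate 2, Ldha and Pfkp without Bic+4AP 180 min replicate 3, and Tpi1 also without basal replicate 1 or either Bic+4AP 180 min sample.

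Both secreted targets were called higher in these 3 comparisons. Adm had 26, 4.45 and 6.61 CPM in basal samples and 23.5, 61.2 and 47.5 CPM after KCl 15 min, where the groups overlapped (1.83 ± 0.40, adjusted p = 0.0039). It had 90.5, 93.1 and 136 CPM after KCl 180 min (3.13 ± 0.41, adjusted p = 1.6e-05) and 136 and 135 CPM after Bic+4AP 180 min (3.47 ± 0.43, adjusted p = 2.1e-06), well clear of basal. Without basal replicate 1 the 3 changes were 2.93, 4.23 and 4.57. Vegfa had 112, 111 and 162 CPM in basal samples, 200, 223 and 218 CPM after KCl 15 min, 325, 285 and 271 CPM after KCl 180 min and 231 and 268 CPM after Bic+4AP 180 min. Its groups did not overlap with basal and it rose by 0.73, 1.19 and 0.95 (SE 0.16 to 0.18), the 15 min call being lost without basal replicate 2.

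Ndrg1 had 49.9, 24.0 and 21.4 CPM in basal samples and 81.7, 48.9 and 117 CPM after KCl 15 min, with 1 pair of samples overlapping (1.39 ± 0.26, adjusted p = 8.6e-04). It had 88.2, 133 and 127 CPM after KCl 180 min (1.88 ± 0.26, adjusted p = 3.3e-05) and 198 and 118 CPM after Bic+4AP 180 min (2.32 ± 0.28, adjusted p = 1.2e-06). Bnip3 had 866, 694 and 1311 CPM in basal samples and rose by 0.59, 0.65 and 0.76 in the same comparisons, with overlap at KCl 15 min. Its call was lost in 4 of 6 fits that left out a sample for KCl 15 min, in 4 of 6 for KCl 180 min, and without Bic+4AP 180 min replicate 2 for the last. Ankrd37, a nuclear ankyrin-repeat protein, was called only after Bic+4AP 180 min, from 3.27, 3.38 and 4.41 to 9.17 and 14.3 CPM (1.65 ± 0.49, adjusted p = 0.02). P4ha1 was called in that group too, from 20.3, 17.1 and 25.7 to 35.9 and 38.1 CPM (0.81 ± 0.26, adjusted p = 0.034). Both of these calls were lost without basal replicate 2 or either Bic+4AP 180 min sample, and P4ha1 also without basal replicate 1. Hif1a stayed between 38.2 and 65.3 CPM in all 13 samples at 21DIV and was not called.

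The difference between stages in the response was tested directly, as the change at 21DIV minus the change at 7DIV. It was called higher for 4 members with KCl 15 min (background 0.86% higher), 2 with KCl 180 min (0.434% higher) and 10 with Bic+4AP 180 min (2.58% higher), and no member was called lower. With Bic+4AP 15 min it was called for 0 members by edgeR and DESeq2 (0.00851% of genes), 2 members having an unadjusted p under 0.05. For Slc2a1 the difference was 1.84 ± 0.40 (adjusted p = 0.013) with KCl 15 min, 1.69 ± 0.40 (adjusted p = 0.034) with KCl 180 min and 1.91 ± 0.41 (adjusted p = 0.0067) with Bic+4AP 180 min. Ndrg1 had 1.33 ± 0.36 (adjusted p = 0.048), 1.74 ± 0.36 (adjusted p = 0.019) and 2.29 ± 0.38 (adjusted p = 6.9e-04). Slc2a3 had 1.42 ± 0.27 (adjusted p = 0.0021) with Bic+4AP 180 min. These comparisons share their basal samples. Only the Bic+4AP 180 min differences of Slc2a1, Slc2a3 and Ndrg1 kept their call whichever sample was left out. The number of members called fell to 0 without 7DIV KCl 15 min replicate 1 for KCl 15 min, and to 0 without 21DIV basal replicate 2 or 21DIV KCl 180 min replicate 2 for KCl 180 min. For Bic+4AP 180 min it fell to 5 without either 21DIV Bic+4AP sample or 7DIV Bic+4AP replicate 3.

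After KCl 15 min at 21DIV 3 of 16 astrocyte markers were called higher, and after KCl 180 min 0 were called. After Bic+4AP 180 min 4 were called lower, with summed levels of 2678 to 4621 CPM against 5799 to 6972 CPM in basal samples. Oligodendrocyte lineage markers summed to 2037 to 2266 CPM after KCl 15 min, against 2523 to 3341 CPM in basal samples. They summed to 1324 to 1801 CPM after KCl 180 min and to 1189 to 1801 CPM after Bic+4AP 180 min. Of 11 tested, 0 were called higher and 1 lower after KCl 15 min, and 0 and 2 after KCl 180 min. After Bic+4AP 180 min 2 of these were called higher and 4 lower. Of 7 tested markers of dividing and progenitor cells, 0 were called after KCl 15 min, 2 were lower after KCl 180 min and 5 were lower after Bic+4AP 180 min, with summed levels of 87.92 to 119.8 and 61.62 to 114.2 CPM at 180 min against 178.1 to 213.1 CPM in basal samples. Of 12 neuron markers, 2 were called higher and 1 lower after KCl 15 min, and 0 and 1 after KCl 180 min. After Bic+4AP 180 min 2 neuron markers were called higher and 3 lower. The part of these shifts in the members' changes was not tested.

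**Figure D3:**
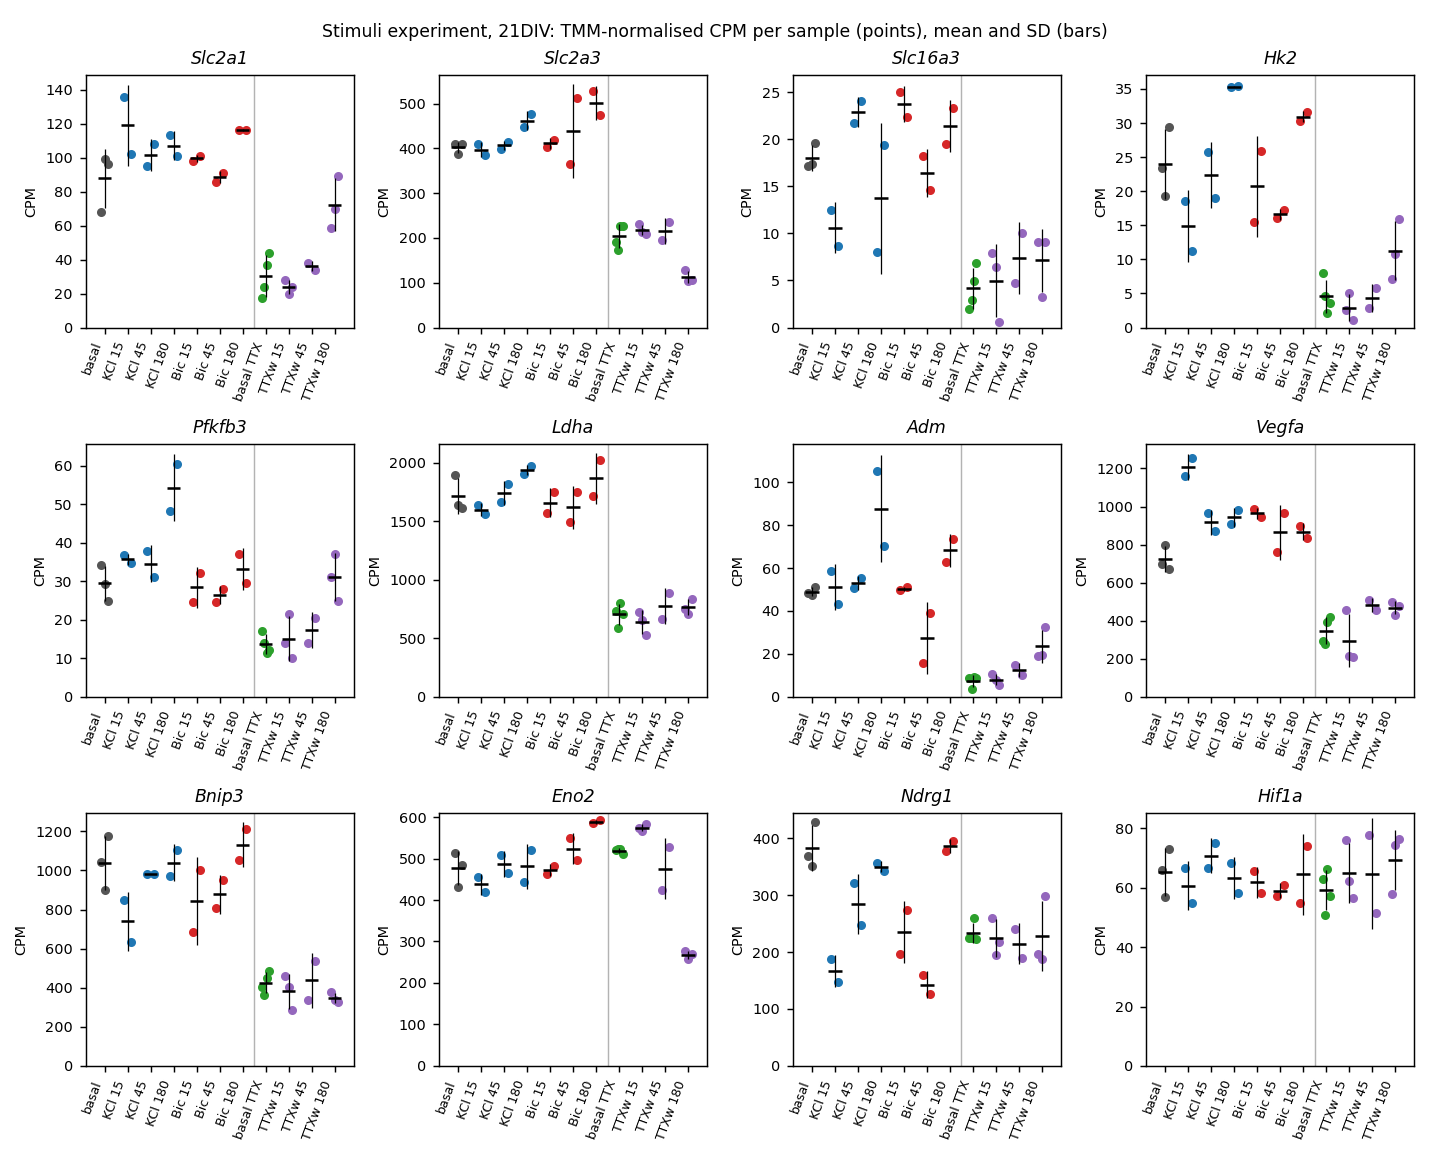
TMM-normalised CPM in every sample of the stimuli experiment for 12 members, with points for samples, horizontal bars for group means and vertical bars for SD. The grey line parts the groups without TTX from those silenced with TTX. Slc2a1, Slc2a3, Slc16a3, Hk2, Ldha, Adm, Vegfa and Bnip3 sit lower in every basal TTX sample than in every basal sample, and Eno2 drops at TTXw 180 min.

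Silencing with TTX for 48 h lowered much of the group. Of the 33 members tested in the stimuli experiment, 21 were called lower and 0 higher in basal TTX against basal (background 10.8% of 12027 tested genes in each direction), with a median log2 change of -0.74 beside 0.00 for all tested genes. No member was called higher by edgeR or DESeq2, and Ldhb had the largest positive change (0.49). Called lower were 3 of 4 transporters, 4 of 8 upper and 3 of 5 lower glycolytic enzymes tested, both pyruvate dehydrogenase kinases, both secreted targets and all 3 of P4ha1, Ankrd37 and Ndrg1. Gapdh, with 0 to 14 counts a sample, failed the filter. Of 13 tested early activity genes, 12 were called lower in the same comparison.

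Adm had 48.4, 47.4 and 51.3 CPM in basal samples and 8.60, 3.46, 9.25 and 8.63 CPM in basal TTX (-2.70 ± 0.27, adjusted p = 2.0e-10). Hk2 had 23.4, 19.2 and 29.4 CPM against 7.94, 4.62, 2.13 and 3.60 CPM (-2.41 ± 0.31, adjusted p = 7.0e-08). Both genes were lower in every silenced sample than in any basal one. Slc16a3 had 17.1, 17.4 and 19.6 CPM against 1.98, 2.89, 4.98 and 6.83 CPM (-1.99 ± 0.36, adjusted p = 3.8e-05). Slc2a1 had 68.1, 99.5 and 96.1 CPM against 17.2, 23.7, 37.0 and 43.9 CPM (-1.48 ± 0.19, adjusted p = 5.8e-08). Neither transporter overlapped between the groups. Bnip3 had 1042, 901 and 1177 CPM against 403, 365, 450 and 487 CPM (-1.28 ± 0.14, adjusted p = 3.7e-09). Ldha, the subunit that favours lactate production, had 1895, 1639 and 1613 CPM against 734, 584, 797 and 710 CPM (-1.28 ± 0.11, adjusted p = 9.3e-12). Pfkp, the platelet-type phosphofructokinase, had 351, 359 and 335 CPM against 151, 141, 166 and 160 CPM (-1.17 ± 0.11, adjusted p = 1.0e-10). These 3 genes were separated with a narrow spread within each group.

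Slc2a3 had 410, 388 and 409 CPM in basal samples and 192, 173, 227 and 227 CPM in basal TTX (-0.97 ± 0.11, adjusted p = 7.8e-09). Vegfa had 698, 799 and 671 CPM against 294, 278, 391 and 421 CPM (-1.06 ± 0.16, adjusted p = 1.3e-06). Egln3 had 93.2, 94.4 and 140 CPM against 46.3, 48.5, 56.9 and 57.2 CPM (-1.05 ± 0.17, adjusted p = 7.9e-06). None of these genes overlapped between the groups. Ldhb, the subunit that favours pyruvate production, was higher in all 4 silenced samples, with 246, 224 and 222 CPM against 329, 389, 286 and 291 CPM, but its change of 0.49 ± 0.12 (adjusted p = 0.0011) stayed under 1.5-fold. Pkm, Pfkl, Gpi1, Hk1 and Bnip3l likewise had an adjusted p under 0.05, with log2 changes of -0.58, -0.56, -0.52, -0.48 and -0.56 that stayed under 1.5-fold.

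Pfkfb3 fell by 1.13, Tpi1 by 0.91, Pdk3 by 0.90, Pgk1 by 0.87, Pdk1 by 0.77, Pgam1 by 0.74, P4ha1 by 0.73, Ndrg1 by 0.72, Aldoa by 0.67 and Eno1 by 0.63 on the log2 scale. The groups overlapped for Eno1 and Pgam1. The calls of Aldoa without basal replicate 5, of P4ha1 without basal replicate 1, of Eno1 without basal replicate 1 or basal TTX replicate 1 or 2, and of Pgam1 in 5 of 7 fits that left out a sample were lost. Ankrd37 was called lower on very few counts, 12, 16 and 5 in basal samples and 2, 0, 0 and 1 in basal TTX, so no fold is given. The other tested members, Slc16a1, Hk1, Gpi1, Pfkl, Pfkm, Pfkfb2, Eno2, Pkm, Ldhb, Hif1a, Egln1 and Bnip3l, lay between -0.58 and 0.49. The number called ranged from 19 to 23 when each sample was left out.

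Astrocyte markers moved the other way. Of 16, 14 were called higher in basal TTX, with summed levels of 9810 to 10585 CPM against 3853 to 4430 CPM in basal samples, and 8 of 11 tested oligodendrocyte lineage markers were called higher (2337 to 2358 against 826.2 to 1273 CPM), as were 4 of 7 markers of dividing and progenitor cells. Neuron markers summed to 7149 to 8170 CPM against 9759 to 10239 CPM, with 3 of 12 called lower. The part of this shift in the members' changes was not tested.

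After TTX was washed out, 0 members were called at 15 min (background 0%) and 0 at 45 min (0.382%) with edgeR and DESeq2, and 1 and 3 members had an unadjusted p under 0.05. At 180 min 5 were called higher (7.33% of genes higher) and 2 lower (6.69% of genes lower) against basal TTX, and the median log2 change of the members was 0.08 beside 0.02 for all tested genes. Slc2a1 had 58.6, 69.6 and 89.1 CPM at 180 min against 17.2, 23.7, 37.0 and 43.9 CPM in basal TTX (1.19 ± 0.20, adjusted p = 2.2e-05). Pfkfb3 had 31.2, 37.2 and 24.9 CPM against 17.2, 13.9, 11.4 and 12.2 CPM (1.22 ± 0.23, adjusted p = 1.0e-04). Adm had 18.9, 19.3 and 32.5 CPM against 8.60, 3.46, 9.25 and 8.63 CPM (1.61 ± 0.31, adjusted p = 2.2e-04). All 3 genes were higher in every washed sample than in any silenced one. Hk2 had 7.16, 10.8 and 15.9 CPM against 7.94, 4.62, 2.13 and 3.60 CPM, with overlap (1.30 ± 0.38, adjusted p = 0.011), and the call was lost without TTXw 180 min replicate 3. P4ha1 rose by 0.71 ± 0.21 (adjusted p = 0.011), a call lost without TTXw 180 min replicate 1.

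The neuronal enolase Eno2 and the neuronal glucose transporter Slc2a3 changed in the opposite direction. Eno2 had 276, 258 and 270 CPM at TTXw 180 min against 520, 523, 524 and 510 CPM in basal TTX (-0.95 ± 0.10, adjusted p = 2.7e-09). Slc2a3 had 129, 105 and 107 CPM against 192, 173, 227 and 227 CPM (-0.85 ± 0.13, adjusted p = 2.9e-06). Neither gene overlapped between the groups, and both calls held without each sample. At this time 8 of 12 neuron markers were called lower (4452 to 5335 CPM summed, against 7149 to 8170 in basal TTX), 7 of 16 astrocyte markers higher (13574 to 17977 CPM) and 8 of 11 oligodendrocyte lineage markers higher, and of 7 markers of dividing and progenitor cells 5 were higher and 1 lower. The part of this in the changes of the 7 called members, 5 higher and 2 lower, was not tested. Per the study's methods, TTX was removed by repeated exchanges into fresh medium and control neurons were washed in the same way.

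In unsilenced 21DIV cultures of the stimuli experiment few members were called. KCl for 15 min called 2 higher (background 4.52% higher) and 2 lower (2.69% lower), KCl for 45 min 0 (0.765% in either direction) and KCl for 180 min 1 higher (0.507% higher). Bic called 1 lower at 15 min (1.01% lower), 2 lower at 45 min (2.95% lower, 4.5% higher) and 0 at 180 min (0.765% in either direction). At KCl 45 min and Bic 180 min DESeq2 also called 0, and 3 and 5 members had an unadjusted p under 0.05. At KCl 15 min 12 of 33 members had an unadjusted p under 0.05 with edgeR, beside 2623 of 12027 tested genes. These comparisons share 3 basal samples and rest on 2 stimulated samples each.

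Ndrg1 was the member called most often here, and it was lower than basal. It had 369, 351 and 429 CPM in basal samples, 187 and 147 CPM after KCl 15 min (-1.20 ± 0.17, adjusted p = 6.4e-06) and 159 and 126 CPM after Bic 45 min (-1.43 ± 0.18, adjusted p = 2.6e-07). After Bic 15 min it had 196 and 274 CPM (-0.72 ± 0.17, adjusted p = 0.0091), a call lost without basal replicate 5 or Bic 15 min replicate 2. None of these groups overlapped with basal, and by 180 min it had 356 and 343 CPM with KCl and 378 and 395 CPM with Bic. Vegfa rose after KCl 15 min, from 698, 799 and 671 to 1158 and 1254 CPM (0.74 ± 0.18, adjusted p = 0.0065), a call lost without KCl 15 min replicate 2. Pdk3 rose by 0.71 ± 0.19 and Pdk1 fell by 0.62 on the log2 scale in the same comparison. The Pdk3 call was lost without basal replicate 5 or KCl 15 min replicate 1, and the Pdk1 call in 4 of 5 fits that left out a sample. Pfkfb3 rose after KCl 180 min, from 34.2, 29.2 and 24.9 to 48.2 and 60.5 CPM (0.89 ± 0.22, adjusted p = 0.039), although this call was lost whichever sample was left out. Adm after Bic 45 min had 15.6 and 39.1 CPM against 48.4, 47.4 and 51.3 CPM in basal samples (-0.80 ± 0.25, adjusted p = 0.039). That change was -0.27 without Bic 45 min replicate 1 and -1.61 without replicate 2, and the call was lost without basal replicate 1, 2 or 5 or Bic 45 min replicate 1. Astrocyte markers were called higher in 5 of 16 cases after KCl 15 min and in 7 of 16 after Bic 45 min. Their summed levels were 5970 to 6128 and 6524 to 7536 CPM, against 3853 to 4430 CPM in basal samples. Oligodendrocyte lineage markers were called higher in 4 of 11 tested after each of these stimuli (1464 to 1608 and 1396 to 1619 CPM, against 826.2 to 1273 CPM). Markers of dividing and progenitor cells were higher in 4 of 7 tested after each, with 1 lower after Bic 45 min. Of 12 neuron markers, 3 were higher after KCl 15 min, and 4 were higher and 1 lower after Bic 45 min. The part of these shifts in the members' changes was not tested.

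Bic and KCl were also compared with each other at matched times. No member was called at 15 min (background 0%) or 180 min (0.74%) by edgeR or DESeq2, with 4 and 2 members at an unadjusted p under 0.05. At 45 min Ndrg1 was called, with 321 and 247 CPM after KCl and 159 and 126 CPM after Bic (-1.0 ± 0.19, adjusted p = 0.0021, beside 0.183% of genes called lower). The groups did not overlap, but the call was lost without KCl 45 min replicate 1 or Bic 45 min replicate 2.

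Over all 26 comparisons Ndrg1 was called 12 times, Slc2a1 9, Adm 8, Slc2a3 and Pfkfb3 7 each, and Vegfa 6. Many of these comparisons share basal samples, and the differences between stages reuse the same responses, so these calls are not independent. Pfkm, Pfkfb2, Hif1a and Bnip3l were never called. Gapdh was not called either, but it failed the filter between stages and in the whole stimuli experiment. Hif1a lay between 38.2 and 66.3 CPM over the 28 samples of the maturation experiment and between 50.8 and 77.9 CPM over the 27 of the stimuli experiment. Pfkm, the muscle-type phosphofructokinase, lay between 179 and 388 CPM and between 158 and 297 CPM, and Bnip3l, a relative of Bnip3, between 23.9 and 69.0 and between 32.2 and 77.9 CPM. Pfkfb2 and Gapdh were low, at 4.06 to 18.3 and 0.338 to 8.99 CPM in the maturation experiment. Pseudogenes could take part of the counts of Gapdh, so its level is uncertain.

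The 2 experiments were normalised separately and were not tested against each other, and bicuculline was given with 4-aminopyridine in one and alone in the other. Set side by side, 21DIV basal samples held 21.4 to 49.9 CPM of Ndrg1 in the maturation experiment and 351 to 429 CPM in the stimuli experiment, and 3.21 to 5.85 against 19.2 to 29.4 CPM of Hk2. Adm had 4.45 to 26 CPM in the former and 47.4 to 51.3 CPM in the latter. KCl was given at the same dose in both. After KCl 180 min Hk2 had 17.4 to 28.4 CPM in the maturation experiment and 35.3 and 35.4 CPM in the stimuli experiment. Adm had 90.5 to 136 against 105 and 70.2 CPM. Ndrg1 remained apart, with 88.2 to 133 CPM in the former and 343 to 356 CPM in the latter. After KCl 15 min at 21DIV, Ndrg1 changed in opposite directions, by 1.39 in the maturation and -1.20 in the stimuli experiment on the log2 scale.

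**Figure D4:**
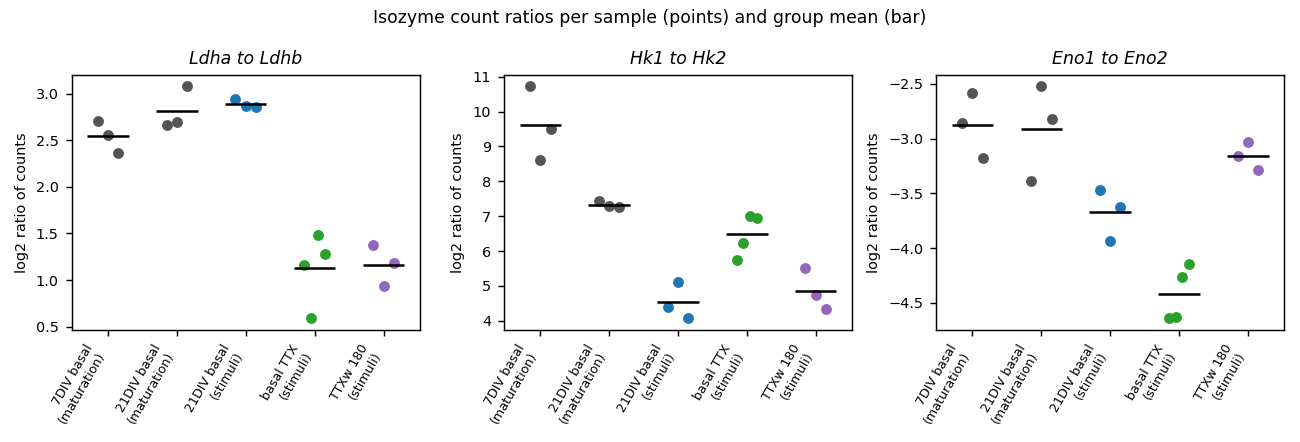
Log2 ratio of counts between paired isozymes (y axis) in each sample of 5 groups (x axis), with points for samples and bars for group means. The ratio of Ldha to Ldhb sits at 0.59 to 1.48 in basal TTX and at 2.86 to 2.94 in basal samples of the same experiment.

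Isozyme pairs were compared within each library as log2 ratios of counts (0.5 added to each count). Ldha and Ldhb encode lactate dehydrogenase subunits that favour lactate and pyruvate production. Their ratio was 7.69, 7.33 and 7.26 in basal samples of the stimuli experiment and 2.23, 1.5, 2.79 and 2.44 in basal TTX, with group means of 2.89 ± 0.04 (SD, n = 3) and 1.13 ± 0.38 (SD, n = 4) on the log2 scale. The groups were separate (difference -1.77, exact permutation test, two-sided p = 0.0286, adjusted p = 0.0286 over 3 ratios), and this p is the smallest that 4 against 3 samples can give. Hk1 to Hk2 differed by 1.95, from 4.53 ± 0.53 in basal to 6.48 ± 0.61 in basal TTX, and Eno1 to Eno2 by -0.74, from -3.68 ± 0.23 to -4.42 ± 0.26, each with the same exact permutation p and without overlap. Between 7DIV and 21DIV basal samples no ratio could reach 0.05, since 3 against 3 samples give 0.1 at the smallest. There Ldha to Ldhb had means of 2.54 ± 0.17 and 2.81 ± 0.23 (exact permutation p = 0.3) and Eno1 to Eno2 -2.88 ± 0.30 and -2.91 ± 0.45 (exact permutation p = 1). Hk1 to Hk2 had 9.62 ± 1.06 and 7.33 ± 0.09 (exact permutation p = 0.1), on 0 to 3 counts of Hk2 at 7DIV. The values for Eno1 are uncertain, since reads could be split between it and its near-identical copy Eno1b, which had 8852 counts beside 2309 of Eno1 over the stimuli experiment and 9682 beside 12004 over the maturation experiment. With the counts of Eno1 and Eno1b summed, an alternative chosen after the data were seen, the ratio to Eno2 was -1.28 ± 0.17 in basal and -2.01 ± 0.06 in basal TTX (difference -0.74, exact permutation p = 0.0286).

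Beyond the 34 members, a list of 59 other genes of glycolysis and pyruvate use and a list of 67 other genes of the hypoxia response and oxygen sensing were counted in the same fits. Between stages, 9 of 32 tested genes of the first list were called higher and 3 lower, beside 18.2% and 14.9% of all tested genes. Higher genes included Aldoc (3.31 ± 0.16), an aldolase that is also an astrocyte marker, Gpd1 (3.19 ± 0.37) and the kinase Pdk2 (2.00 ± 0.20). In the second list 14 of 42 were called higher and 6 lower, against the same background, with the haem-degrading enzyme Hmox1 higher by 3.56 ± 0.32. At 21DIV the hypoxia list had 12 of 49 higher and 0 lower after KCl 15 min, 16 and 0 after KCl 180 min, and 16 and 3 after Bic+4AP 180 min, beside 3.21% and 3.02%, 2.98% and 1.91%, and 7.39% and 6.84% of all tested genes higher and lower. The carbonic anhydrase Car12 rose by 1.86 ± 0.43, 2.35 ± 0.43 and 2.71 ± 0.46 in these comparisons, and Car9 by 1.95 ± 0.45 and 2.32 ± 0.46 with KCl. The other glycolysis list had 3 higher and 3 lower of 36 after KCl 15 min, 2 and 1 after KCl 180 min, and 5 and 3 after Bic+4AP 180 min. Bsg, the chaperone of the lactate transporters, rose by 1.06 ± 0.15 after KCl 15 min.

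In basal TTX, 23 of 52 tested genes of the other hypoxia list were called lower and 5 higher, and 11 of 42 of the other glycolysis list lower and 6 higher, beside 10.8% of all tested genes in each direction. Car12 fell by 2.28 and the collagen prolyl hydroxylase P4ha2 by 2.22 on the log2 scale. Angptl4, a secreted regulator of lipoprotein lipase, was called higher, with mean levels of 7.61 CPM in basal TTX and 0.218 CPM in basal samples, too few counts in basal for a fold. Aldoc was higher in basal TTX by 1.99 ± 0.13, as were most astrocyte markers. At TTXw 180 min the other hypoxia list had 9 higher and 3 lower of 52 (7.33% and 6.69% of all tested genes), with Hmox1 higher by 2.80 ± 0.16, and the other glycolysis list 1 higher and 2 lower of 42. In unsilenced cultures Car12 was lower after KCl 15 min (-1.68 ± 0.24) and Bic 45 min (-1.30 ± 0.23), where the other hypoxia list had 5 higher and 4 lower, and 3 higher and 7 lower, of 52, beside 4.52% and 2.69%, and 4.5% and 2.95%, of all tested genes higher and lower.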

How the data were processed

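RNA was measured in 55 samples by 3′ RNA sequencing (CEL-Seq2). Per the labels and the study's methods, the authors aligned reads to mm10 with STAR and counted them with ESAT. The deposited values are whole-number counts per RefSeq transcript, not normalised. Whether molecular identifiers were collapsed and how multiply mapped reads were treated is not given in the sources used here, nor are versions, so copies such as the pseudogenes of Gapdh, Pgam1 and Eno1 could take part of their counts. Transcripts were matched to symbols (80.8% and 80.9%), leaving 18.5% and 19.2% of counts unmatched, and the transcript with the most counts stood for a gene. Unmatched transcripts were not tested.

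The counts were tested with edgeR 4.0.16 (quasi-likelihood, TMM, R 4.3.3), 1 fit per experiment and a fit of its own for the 6 basal samples of the stage comparison. Genes needed over 5 CPM in at least 2 samples, and p-values were adjusted over all tested genes by the Benjamini-Hochberg method. Calls needed an adjusted p under 0.05 and a 1.5-fold change, but no fold for differences between responses or between Bic and KCl. Alternatives were DESeq2 1.42.0, RLE size factors, no filter, counts summed over transcripts, a replicate block, only the groups compared, all samples or thinned counts for the stage comparison, and each sample left out. Fits were tested on simulated data.

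Library totals had medians of 2867836 (7DIV), 5088478 (21DIV, maturation) and 2384138 counts (stimuli), so levels of a few CPM rest on few counts. Members were named in full where called, up to 10 a comparison by absolute log2 change, and other lists by at most 3 examples. Members and lists were chosen with earlier results of these data known. Promoter sequences are RefSeq's for GRCm38.p6.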

Additional observations from a re-analysis of the deposited data

Results flagged for a closer look

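By a direct test of the difference, the response at 21DIV was called above that at 7DIV in 16 cases. Of all tested genes, 0.86% were called higher with KCl 15 min, 0.434% with KCl 180 min and 2.58% with Bic+4AP 180 min. Only the Bic+4AP 180 min calls of Ndrg1, Slc2a1 and Slc2a3 held whichever sample was left out. With KCl 15 min the difference was 1.84 for Slc2a1, 1.33 for Ndrg1, 1.04 for Slc2a3 and 0.73 for Aldoa on the log2 scale. With KCl 180 min it was 1.74 for Ndrg1 and 1.69 for Slc2a1. With Bic+4AP 180 min it was 3.96 for Adm, 3.93 for Ankrd37, 2.29 for Ndrg1, 1.91 for Slc16a1, 1.91 for Slc2a1, 1.44 for Pfkfb3, 1.42 for Slc2a3, 0.71 for Eno2, 0.70 for Ldha and 0.69 for Pfkp. The Ankrd37 value rests on 0 to 2 counts a sample and that of Adm on 3 to 5 counts a sample in the 7DIV Bic+4AP 180 min group. Without 21DIV basal replicate 1 the Adm value was 5.05, and the Ankrd37 value ranged from 3.42 to 4.84 over the samples left out.

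In the 4 basal TTX samples, 3 of 33 tested members had 1 sample far from the others, with a gap of 0.891 of the group's range for Tpi1, 0.888 for Adm and 0.958 for Ndrg1, above Dixon's critical value for 4 samples. Chance gives about 1 in 20. Tpi1 had 288 CPM in replicate 1 and 328 to 333 CPM in the others, Adm 3.46 CPM in replicate 2 and 8.60 to 9.25 CPM in the others, and Ndrg1 260 CPM in replicate 3 and 223 to 225 CPM in the others.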

How the results depend on the processing

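No called member value changed sign under any alternative. Of the called values (111 in all), 79 kept their call in every alternative fit that tested them. Leaving out each sample in turn, 66 kept it in every fit that tested them. A fit in which the gene failed the filter was not counted, as for Adm between stages without 21DIV basal replicate 1. With counts summed over transcripts, 107 of the 111 values were tested. Counts of called members for 21DIV against 7DIV, for KCl 180 min and Bic+4AP 180 min at 21DIV, for basal TTX against basal and for TTXw 180 min stayed within 1.5 times their value under every alternative. Fitting only the groups compared gave 6 members after KCl 15 min at 21DIV, 2 and 1 for the differences between stages with KCl 15 and 180 min, 2 for KCl 180 min (stimuli) and 1 for Bic against KCl at 180 min. DESeq2 gave 4 for the difference with KCl 180 min and 1 for Bic 45 min, where RLE size factors also gave 1. Without a filter 7 members were called for that KCl 180 min difference, 1 after Bic+4AP 15 min at 21DIV, 2 after KCl 180 min (stimuli) and 2 for Bic against KCl at 45 min. Counts summed over transcripts gave 1 and 1 for the differences with KCl 15 and 180 min, 2 for KCl 15 min, 0 for KCl 180 min, 0 for Bic 15 min and 1 for Bic 45 min (stimuli). Samples with the same number did not deviate together (correlations -0.247 to 0.114 in the maturation and -0.0936 to 0.103 in the stimuli experiment). The replicate block gave 1, 1 and 5 for the differences with KCl 15 min, KCl 180 min and Bic+4AP 180 min, 2 for KCl 15 min, 0 for KCl 180 min and 1 for Bic 45 min. The cause was not tested for any of these.

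Leaving out each sample, counts ranged from 4 to 12 for KCl 15 min at 21DIV, 0 to 4 and 0 to 4 for the differences with KCl 15 and 180 min, and 5 to 9 with Bic+4AP 180 min. In the stimuli experiment they ranged from 2 to 4, 0 to 1 and 0 to 0 for KCl 15, 45 and 180 min, 0 to 2 and 1 to 2 for Bic 15 and 45 min, and 0 to 1 for Bic against KCl at 45 min. For basal TTX against basal the isozyme differences ranged from -1.88 to -1.59 (Ldha to Ldhb), 1.72 to 2.24 (Hk1 to Hk2) and -0.87 to -0.64 (Eno1 to Eno2), where fewer samples cannot reach 0.05. Between stages the Eno1 to Eno2 difference (-0.03) ranged from -0.23 to 0.21, being 0.21 without 21DIV basal replicate 1 and 0.11 without 7DIV basal replicate 3. With Eno1 and Eno1b counts summed, an alternative chosen after the data were seen, that difference was 0.13. Hk2, Slc16a3, Ankrd37, Gapdh and Pgam1 had few counts at 7DIV, so their values there are imprecise.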
